A study of Mus musculus with 6 samples.

Results

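The genes described here are the 9 membrane adenylyl cyclases, Adcy1 to Adcy9, and Gpr161, a G protein-coupled receptor of the primary cilium. They were chosen by symbol, and all 10 are among the 16000 genes of the deposited count table. Of these, 6 had enough counts to be tested (Adcy1, Adcy3, Adcy6, Adcy7, Adcy9 and Gpr161), within 11972 genes tested in all. RNA came from NIH3T3, an established mouse embryonic fibroblast line, in 3 wild-type (WT) and 3 Rai16 knockout (KO) libraries. Cells of both groups had been kept under serum starvation, which arrests fibroblasts and lets them grow a primary cilium. The comparison asks how loss of Rai16 goes with transcript levels in that state. The sources used here do not say how the knockout was made, whether it is 1 clone, or whether libraries came from separate cultures. The p-values therefore reflect library-to-library spread, and this spread may be technical.

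Membrane adenylyl cyclases make cyclic AMP from ATP. They are switched on by the stimulatory G protein α subunit (Gnas) and, for several isoforms, held back by inhibitory α subunits. The isoforms differ in their other inputs: Adcy1, Adcy3 and Adcy8 are grouped as calcium-responsive and stimulated through calmodulin in vitro, Adcy5 and Adcy6 are inhibited by calcium, Adcy2, Adcy4 and Adcy7 are stimulated by Gβγ, and Adcy9 is poorly activated by forskolin. Gpr161 sits in the ciliary membrane, raises cyclic AMP there and keeps Hedgehog signalling low until it leaves the cilium.

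The start regions of the members called lower in knockout are shown. Adcy3 was tested only through its wild-type counts, so these genes are not read as a set with a shared direction. Each region is the stretch of 250 bases that precedes a RefSeq start site (build GRCm38.p6, plus strand). Where a gene has several starts the first in the table was taken, and which start these cells use was not measured. Capitals mark GC boxes (GGGCGG on either strand), the short motif bound by Sp1-type factors.
Adcy1, chr11:7063183-7063432: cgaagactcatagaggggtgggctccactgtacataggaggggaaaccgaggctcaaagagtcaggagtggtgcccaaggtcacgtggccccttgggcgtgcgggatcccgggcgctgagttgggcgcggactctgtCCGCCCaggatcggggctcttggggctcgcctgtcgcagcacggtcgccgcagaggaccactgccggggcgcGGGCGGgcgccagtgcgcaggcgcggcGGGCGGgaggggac
Adcy3, chr12:4133147-4133396: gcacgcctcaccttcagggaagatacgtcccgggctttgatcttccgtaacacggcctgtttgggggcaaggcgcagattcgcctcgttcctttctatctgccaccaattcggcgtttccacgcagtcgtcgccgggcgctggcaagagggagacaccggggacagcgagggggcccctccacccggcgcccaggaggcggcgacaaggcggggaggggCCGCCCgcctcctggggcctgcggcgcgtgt
Gpr161, chr1:165295516-165295765: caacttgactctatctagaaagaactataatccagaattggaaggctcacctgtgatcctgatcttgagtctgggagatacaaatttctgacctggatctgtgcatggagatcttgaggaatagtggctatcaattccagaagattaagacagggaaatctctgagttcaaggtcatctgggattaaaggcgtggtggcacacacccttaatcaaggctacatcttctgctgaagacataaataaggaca
The Adcy1 and Adcy3 windows are rich in G and C (71.2% and 68.8%), with 3 and 1 GC boxes. The Gpr161 window holds 42.4% G and C and no GC box. Over all 32851 RefSeq windows of this length the median was 52.4%, and 32.7% held a GC box. The members have 12 such windows for 8 genes. Adcy6 and Adcy8 have no entry. The palindromic cyclic AMP response element, TGACGTCA, was in 0 of the 12 windows and in 1.55% of all windows. Its 5-base part TGACG, which every full element also contains, was in 2 of the 12 (1 each for Adcy7 and Adcy9) and in 17.8% of all. The GLI site TGGGTGGTC was in 0 of the 12 and in 0.225% of all. These matches describe letters in the window and not binding.

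Total counts ran from 16741607 to 18368760 per library. Knockout replicate 2 stood apart from the other knockout libraries on the second principal component of log2 CPM (5.90% of the variance, scores of 23.3 against -12.05 and -12.22). Its difference from them followed gene length. In log2 CPM, replicate 2 minus the mean of knockout replicates 1 and 3 had a median of 0.24 in the shortest of 4 equal classes of tested genes and -0.25 in the longest. It was -0.32 over the 1564 genes of 8000 bases or more, the class of Adcy1, Adcy6, Adcy9 and Gpr161. Lengths here are those that link the authors' counts to their FPKM values. Some skeletal muscle transcripts were also high in that library alone. Acta1 was at 58.4 CPM and Ckm at 22.1 CPM, against at most 0.450 CPM and 0 CPM in each of the other 5. Des was at 4.47 CPM, against at most 0.719 CPM. Other genes of the muscle list did not stand out there. Tnnt2 was at 2.89 CPM and Ttn at 2.18 CPM, with Ttn at 3.45 to 3.93 CPM in wild type. Of 3 tested muscle markers 0 were called higher and 1 lower. Summed over the muscle list (7 of 8 markers in the table), levels were 6.95 to 7.85 CPM in wild type and 3.72 to 90.1 CPM in knockout. The part of length and of this RNA in the results was not tested. Each member result is given with and without the library where it matters. Most other named genes are given with all libraries only. All 10 fibroblast markers were present, at 24042 to 24527 CPM summed in wild type and 19396 to 22600 CPM in knockout. Markers of other cell types were low but moved with the group. The neural list (6 of 8 markers in the table) summed to 18.5 to 20.0 CPM in wild type and 5.07 to 6.78 CPM in knockout, with 2 of 3 tested markers lower. Most of this was Map2, at 12.1 to 14.8 CPM and 1.31 to 2.50 CPM, while Rbfox3, Sox10 and Gfap stayed at or below 0.120 CPM in every library. The epithelial, leukocyte and endothelial sums were 1.32 to 4.54 CPM in wild type and 4.12 to 7.54 CPM in knockout, each sum higher in all knockout libraries, with 1 of 1, 2 of 2 and 1 of 2 tested markers called higher. The epithelial rise was mostly Krt8, at 0.779 to 1.21 CPM in wild type and 3.80 to 4.69 CPM in knockout. Cdh1, of the same list, was lower in all knockout libraries (0.420 to 0.747 and 0.326 to 0.394 CPM). The leukocyte rise was mostly Cd68 and Csf1r, while Ptprc was at 0.231 to 0.287 and 0 to 0.272 CPM. In the endothelial list Cdh5 was at 0.116 to 0.360 and 1.19 to 2.78 CPM. The part of such cells or RNA in the results was not tested. The targeted gene, listed as Fam160b2, averaged 23.8 ± 1.49 CPM in the wild-type and 21.9 ± 0.395 CPM in the knockout libraries (SD, n = 3 each). Its log2 fold change was -0.12 ± 0.075 (SE, edgeR quasi-likelihood test, adjusted p = 0.184), so the transcript gives no check of the genotype labels, and a small lesion could leave it in place.

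Serum-starved NIH3T3 cells carried mainly 3 adenylyl cyclase transcripts, and their balance differed between the groups. Adcy1 and Adcy3, both of the calcium-responsive class, and the ciliary receptor gene Gpr161 were lower in knockout. Adcy3 was tested only because its wild-type libraries had enough counts, so its call is not support for a shared direction. Adcy6, the most abundant isoform, and Adcy9 did not pass the test with all libraries. Of the 6 tested members 3 were called lower, where 29.2% of all tested genes were, and 0 were called higher, where 30.5% were. Calls rest on edgeR's p, adjusted by Benjamini-Hochberg across every tested gene, being under 0.05, which held for 59.6% of them in either direction. No member was higher at an unadjusted p under 0.05 either (0 genes), and DESeq2 and limma also called 0 higher. The median log2 fold change was -0.18 over the 6 members and 0.00 (0.0028) over all tested genes. These medians were -0.09 and 0.01 without knockout replicate 2. In CPM the groups did not overlap for 3 of the 6, where that held for 67.6% of all tested genes. Adcy3 is part of these counts and of the member medians, which are therefore not read as a lean of the members. Without it the values went both ways with all libraries. They were -0.73 for Adcy1 and -0.49 for Gpr161, and 0.13 for Adcy6, 0.17 for Adcy9 and 0.28 for Adcy7.

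**Figure D1:**
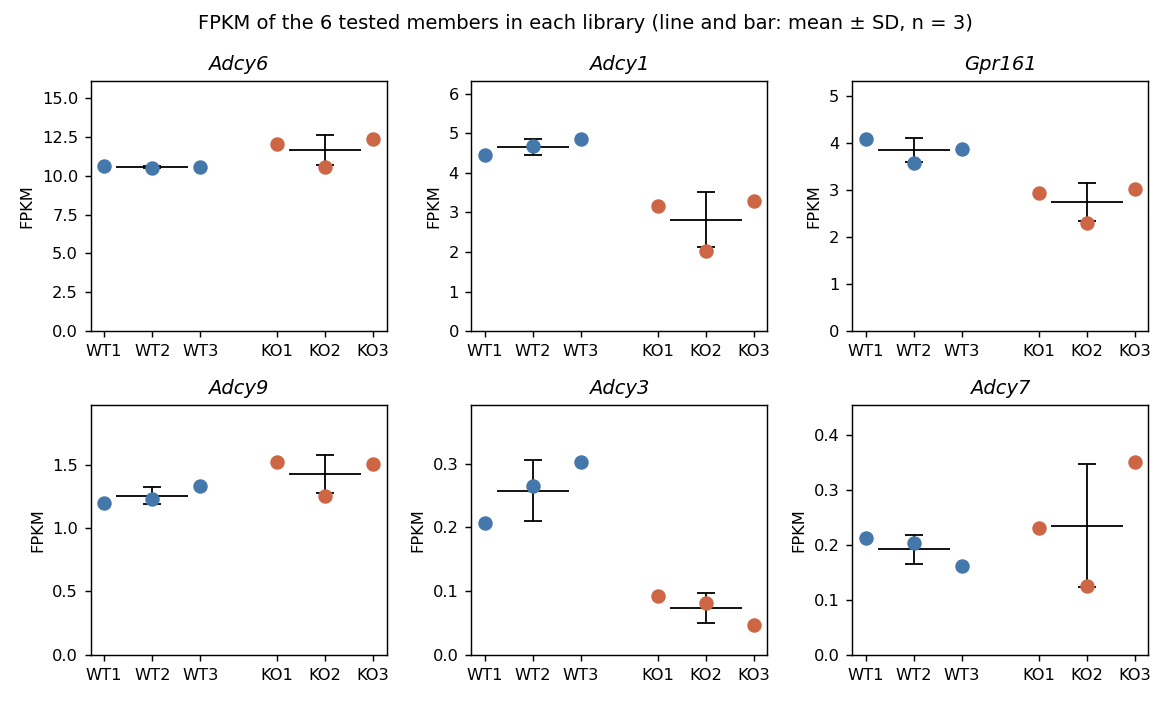
FPKM (vertical axis, from 0) of the 6 tested members in each of the 3 wild-type (WT, blue) and 3 knockout (KO, orange) libraries, with the mean and SD of each group. Adcy1, Adcy3 and Gpr161 are lower in all 3 knockout libraries than in any wild-type library, and knockout replicate 2 is the lowest knockout library for every gene shown but Adcy3.

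Levels between genes are compared as FPKM, which is per gene length. Adcy6 stood at 10.6, 10.5 and 10.6 FPKM in wild-type replicates 1, 2 and 3, near the middle of the tested genes (percentile 51.8 of mean FPKM). In wild type it was followed by Adcy1 (4.66 ± 0.204 FPKM), Gpr161 (3.85 ± 0.262), Adcy9 (1.25 ± 0.0682), Adcy3 (0.258 ± 0.0482) and Adcy7 (0.192 ± 0.0265; SD, n = 3 each). The wild-type libraries of neighbouring genes in this order did not overlap, except those of Adcy3 and Adcy7. In knockout the order was Adcy6 (11.6 ± 0.973 FPKM), Adcy1 (2.82 ± 0.694), Gpr161 (2.76 ± 0.402), Adcy9 (1.42 ± 0.151), Adcy7 (0.235 ± 0.113) and Adcy3 (0.0736 ± 0.0233). There Adcy1 and Gpr161 overlapped, and Adcy7 lay above Adcy3 in every library. The 4 other cyclases were at the edge of detection, with 1 to 4 counts each over all 6 libraries.

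Among the calcium-stimulated cyclases, Adcy1 is an isoform known mainly from neurons. The neural marker Map2 was also lower in knockout, and a link between these genes was not tested. Adcy1 had 954, 963 and 1047 counts in wild-type replicates 1, 2 and 3. There were 716, 453 and 719 in knockout replicates 1, 2 and 3. As FPKM these were 4.46, 4.67 and 4.86 in wild type and 3.17, 2.02 and 3.28 in knockout. Every knockout library lay below every wild-type library, and knockout replicate 2 lay well below the other knockout libraries. The gene fell with a log2 fold change of -0.73 ± 0.16 (SE; 95% interval -1.09 to -0.38; adjusted p = 0.00319, edgeR), to 0.601 of the wild-type level. Without knockout replicate 2 the log2 fold change was -0.54 ± 0.058 (edgeR adjusted p = 1.51e-12, against 3.19e-05 to 0.0179 over the other alternatives).

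Adcy3, the cyclase of olfactory cilia and a common marker of neuronal primary cilia, was scarce in these fibroblasts. It had 17, 21 and 25 counts in wild-type replicates 1, 2 and 3 and 8, 7 and 4 in knockout replicates 1, 2 and 3. The FPKM were 0.206, 0.265 and 0.302 against 0.0920, 0.0813 and 0.0474. The groups did not overlap, and knockout replicate 2 lay between the other knockout libraries. Its log2 fold change was -1.80 ± 0.35 (SE; adjusted p = 0.00184, edgeR), the largest in size among the tested members. The ratio of the summed counts, 63 against 19, was 3.52 in favour of wild type after scaling (exact binomial 95% interval 2.08 to 6.23, counting error only). Adcy3 reached the count needed for testing through its wild-type libraries, so that a difference was built into its being tested. Adcy8, the third member of that class, had 2 counts, both in knockout libraries.

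Of the calcium-inhibited cyclases, Adcy6 made up most of the cyclase message and Adcy5 was all but missing, with 1 count in a wild-type library and 0 elsewhere. Adcy6 had 2042, 1935 and 2041 counts in wild-type replicates 1, 2 and 3 and 2437, 2115 and 2433 in knockout replicates 1, 2 and 3. The wild-type FPKM lay between 10.5 and 10.6, knockout replicates 1 and 3 reached 12.01 and 12.37, and knockout replicate 2 stood at 10.5, inside the wild-type range. With all libraries the log2 fold change was 0.13 ± 0.072 (SE; 95% interval -0.03 to 0.29; adjusted p = 0.149, edgeR). Without knockout replicate 2 it was 0.20 ± 0.038 and passed the test (edgeR adjusted p = 4.91e-06). Over the other 13 alternatives the adjusted p ran from 0.0977 to 0.405. Whether Adcy6 is called higher thus rests on that 1 library.

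Adcy9, the most divergent membrane isoform, showed the same arrangement of libraries at a lower level. Its FPKM were 1.20, 1.23 and 1.33 in wild-type replicates 1, 2 and 3 and 1.52, 1.25 and 1.51 in knockout replicates 1, 2 and 3. Only knockout replicate 2 lay within the wild-type range. The log2 fold change was 0.17 ± 0.11 (SE; 95% interval -0.07 to 0.41; adjusted p = 0.191, edgeR). It became 0.26 ± 0.10 without that library (edgeR adjusted p = 0.0201, against 0.166 to 0.403 over the other alternatives). Without knockout replicate 2 the members called higher were therefore Adcy6 and Adcy9, against a background of 71.1% of 12082 tested genes called, 36% higher and 35.1% lower.

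Of the cyclases stimulated by Gβγ, only Adcy7, best known from blood cells, was tested. It had 26, 24 and 20 counts in wild-type replicates 1, 2 and 3 and 30, 16 and 44 in knockout replicates 1, 2 and 3. The knockout libraries lay on both sides of the wild-type range. The log2 fold change of 0.28 ± 0.36 (SE) had a 95% interval from -0.54 to 1.09 (adjusted p = 0.527, edgeR) and leaves a range from 0.689 to 2.13 of the wild-type level. It was 0.59 ± 0.30 without knockout replicate 2 and -0.12 ± 0.34 without knockout replicate 3. Adcy4 had 2, 2 and 0 counts in wild type and 0 in each knockout library, and Adcy2 had 1 count in knockout replicate 2 alone. For Adcy2, Adcy4, Adcy5 and Adcy8 no library exceeded 0.0336 FPKM. A count of 0 allows up to 3 counts, which for these genes and libraries is 0.0227 to 0.0504 FPKM.

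**Figure D2:**
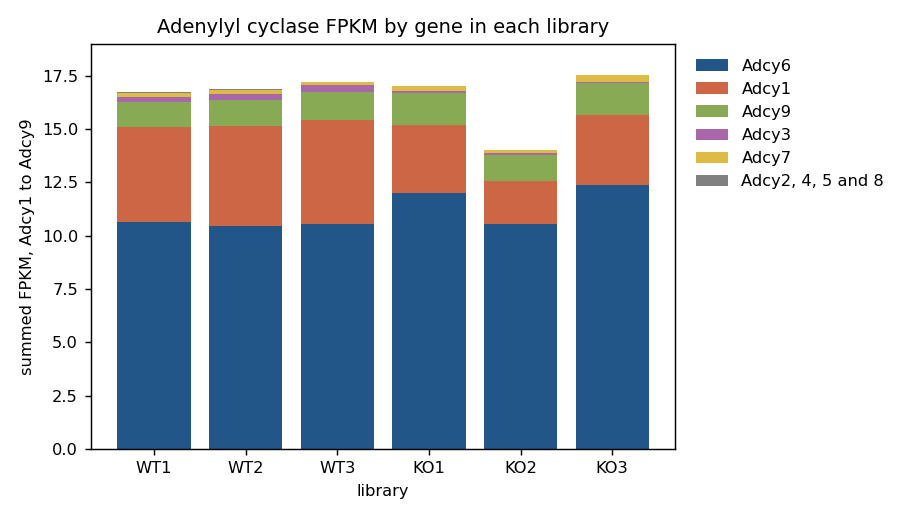
FPKM of Adcy1 to Adcy9 stacked for each library (bars from 0). The total is alike in all libraries but knockout replicate 2 (14.0 FPKM), while the orange segment, Adcy1, is shorter in all 3 knockout libraries than in any wild-type library.

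The summed cyclase level was similar between groups outside knockout replicate 2. Adcy1 to Adcy9 together reached 16.7, 16.9 and 17.2 FPKM in wild-type replicates 1, 2 and 3 and 17.0, 14.0 and 17.6 FPKM in knockout replicates 1, 2 and 3. The ratio of the group means, knockout over wild type, was 0.956 with all libraries and 1.02 without knockout replicate 2. The makeup of that sum differed more than its size. Adcy1 supplied 27.5 ± 0.818% of the summed FPKM in wild type and 17.2 ± 2.44% in knockout (SD, n = 3 each). Adcy6 supplied 62.3 ± 1.11% and 72.0 ± 2.62%, and Adcy9 7.39 ± 0.291% and 8.80 ± 0.194%. Adcy6, Adcy1 and Adcy9 together held 97.0% to 98.4% of the sum in each library. Without knockout replicate 2 the knockout shares were 18.6% for Adcy1 and 70.5% for Adcy6. The wild-type and knockout libraries did not overlap in the share of any of these 3 genes. Shares of the same sum are tied, so a lower share of Adcy1 by itself raises those of Adcy6 and Adcy9. These are therefore not 3 separate differences, and with all libraries Adcy6 and Adcy9 did not pass the test on their own levels.

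Ratios of members within a library do not depend on how libraries are scaled. Adcy6 over Adcy1 in FPKM was 2.39, 2.24 and 2.17 in wild-type replicates 1, 2 and 3 and 3.80, 5.21 and 3.77 in knockout replicates 1, 2 and 3. All knockout ratios lay above all wild-type ratios (exact permutation test, two-sided, p = 0.1, the smallest that 3 against 3 libraries can give, adjusted over 5 ratios 0.125). Gpr161 over Adcy6 was 0.385, 0.342 and 0.368 in wild type and 0.246, 0.218 and 0.244 in knockout, again without overlap and with the same exact p. Adcy9 over Adcy6 overlapped between the groups (0.119 ± 0.00660 and 0.122 ± 0.00381; SD, n = 3 each; exact permutation p = 0.4). The transcripts of Adcy6 and Adcy9 thus kept a similar ratio in all 6 libraries, from 0.113 to 0.126, whereas Adcy1 and Gpr161 lost ground to Adcy6. Gpr161 over Adcy1 ran from 0.766 to 0.919 in wild type and from 0.922 to 1.13 in knockout, and Adcy3 over Adcy7 from 0.976 to 1.87 and from 0.136 to 0.653.

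Gpr161, which couples to Gs in the ciliary membrane, had 615, 517 and 587 counts in wild-type replicates 1, 2 and 3 and 468, 360 and 465 in knockout replicates 1, 2 and 3. The FPKM were 4.10, 3.58 and 3.89 against 2.95, 2.29 and 3.02. The groups did not overlap, and the lowest value was again that of knockout replicate 2. The gene fell with a log2 fold change of -0.49 ± 0.11 (SE; 95% interval -0.75 to -0.24; adjusted p = 0.0044, edgeR), to 0.710 of the wild-type level. Without knockout replicate 2 the log2 fold change was -0.37 ± 0.073 (edgeR adjusted p = 7.64e-06, against 0.000619 to 0.0241 over the other alternatives). Both estimates are under 1.5-fold, but the interval with all libraries, down to 0.596 of the wild-type level, includes larger falls.

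**Figure D3:**
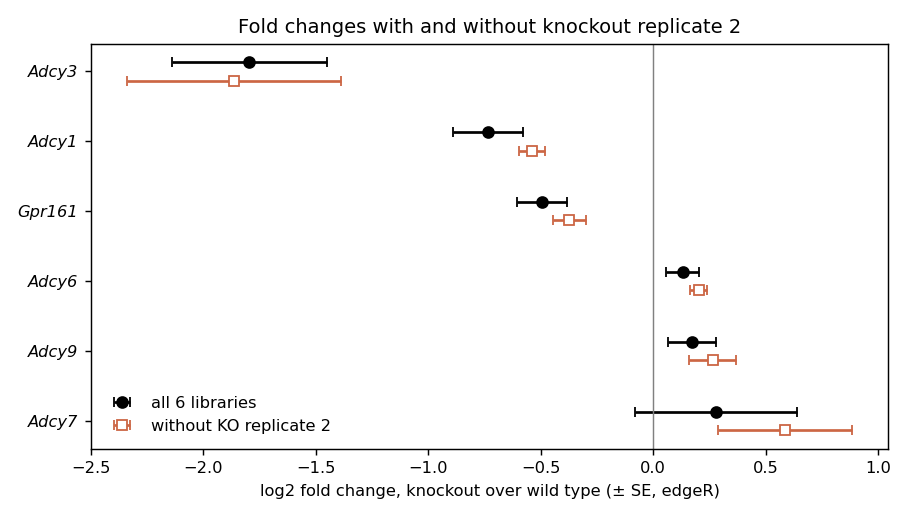
Log2 fold change, knockout over wild type, with its SE for the 6 tested members, from the fit of all 6 libraries (filled) and without knockout replicate 2 (open). Adcy3, Adcy1 and Gpr161 lie below 0 in both fits, and Adcy6 and Adcy9 lie further above 0 without that library.

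The position of knockout replicate 2 differed between members. In log2 CPM its difference from the mean of knockout replicates 1 and 3 was -0.68 for Adcy1, against a median of -0.32 for genes of 8000 bases or more. The same difference was -0.39 for Gpr161, -0.28 for Adcy9, -0.22 for Adcy6 and -1.12 for Adcy7, which rests on 16 counts in that library. For Adcy3, a shorter gene model of 4736 bases, it was 0.21. Replicate 2 was the lowest knockout library for 5 of the 6 tested members, and for 81.6% of the genes of 8000 bases or more and 39.7% of all tested genes. Length also moved with the group difference itself. The median log2 fold change was 0.13 in the shortest length class and -0.20 in genes of 8000 bases or more, and without knockout replicate 2 these were 0.04 and -0.08. The values of Adcy1 and Gpr161 without that library, -0.54 and -0.37, lie below this median, and those of Adcy6 and Adcy9 lie above it. A median leaves genes on both sides, and the spread of fold changes in this class is not given here. Over all tested genes the median size of the log2 fold change, in either direction, was 0.32 with all libraries. The part of length in these values was not tested.

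**Figure D4:**
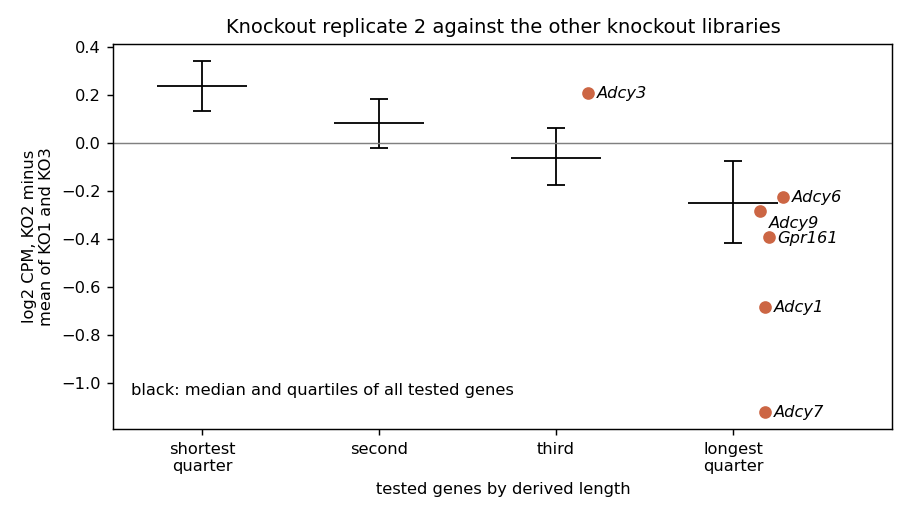
Log2 CPM of knockout replicate 2 minus the mean of knockout replicates 1 and 3, for all tested genes in 4 equal classes of derived length (black, median and quartiles) and for the 6 tested members (orange). The medians go from 0.24 in the shortest class to -0.25 in the longest, where 5 of the members lie.

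Position on the chromosome was compared through the nearest 10 tested genes on each side, in the gene order of GRCm38.p6. Over all tested genes 30.5% were called higher and 29.2% lower. Of the 20 neighbours of Adcy1, 7 were called higher and 4 lower, with a median log2 fold change of 0.15. For Gpr161, 2 of 20 neighbours were higher and 6 lower (median -0.12). Adcy3, near a chromosome end, had 17 neighbours, 3 higher and 1 lower (median 0.06). For Adcy6 the counts were 7 and 4 of 20 (median 0.04), and for Adcy9 and Adcy7 they were 9 and 2 of 20 (medians 0.21 and 0.18). Around the targeted gene 16 of 20 neighbours were lower and 2 higher (median -0.78). None of the members lies in a stretch with so large a shift.

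For Gpr161 the 3 tested genes with the most similar profile over the 6 libraries were Usp6nl, Dtna and Rb1. The root mean square difference of their centred log2 CPM from that of Gpr161 was 0.036, 0.041 and 0.044. For Adcy6 they were Lrig1, Igf2bp1 and Samd9l, at 0.011, 0.020 and 0.022. Lrig1 averaged 369 ± 2.90 CPM in the wild-type and 402 ± 35.1 CPM in the knockout libraries (SD, n = 3 each) and like Adcy6 did not pass the test. With 2 groups of 3 libraries such likeness reflects the group means and the position of knockout replicate 2.

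Genes that act on or after the cyclases are given from 7 lists, which together hold 148 genes. Of these, 97 were tested, and 39 were called higher and 24 lower (backgrounds of 30.5% and 29.2%). The median log2 fold change was 0.04, against 0.00 (0.0028) for all tested genes. Several low genes of the lists, like Adcy3, reached the count needed for testing only through the group where they were high. Among them are Npr1, Vipr1, Mc5r, Npy1r, Gli1 and Nr4a3, high in knockout, and Ramp2, high in wild type. A difference was built into their being tested, and they are part of the counts and medians.

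**Figure D5:**
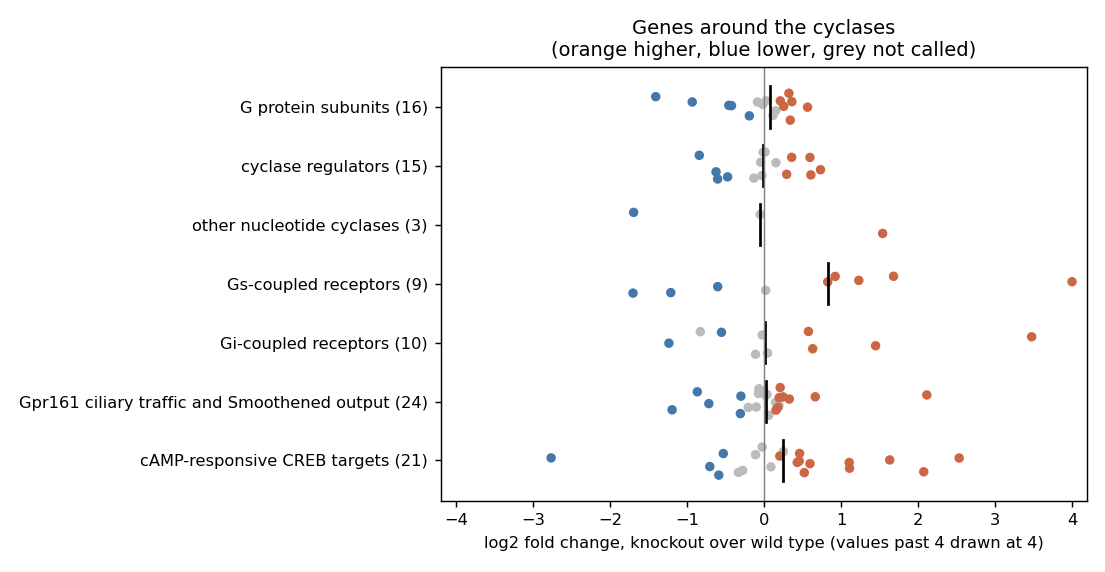
Log2 fold change, knockout over wild type, of the tested genes of each list (number in brackets), with the list median as a black line. Orange points were called higher and blue points lower, and every list holds both.

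Of 16 tested G protein subunit genes, 6 were higher and 5 lower (median 0.07). Without knockout replicate 2 there were 9 higher and 5 lower, where the backgrounds were 36% and 35.1% of all tested genes. Gnas, encoding the α subunit that activates the cyclases, rose from 679 ± 5.62 to 1004 ± 61.6 CPM (log2 fold change 0.57 ± 0.061, adjusted p = 6.17e-05, edgeR). Gnb1, a β subunit gene, fell from 284 ± 4.89 to 212 ± 8.04 CPM (-0.42 ± 0.055). The γ subunit genes Gng8 and Gng11 fell by 0.93 ± 0.10 and 0.46 ± 0.15 on the log2 scale. The call on Gng11 was lost without any 1 of wild-type replicates 1, 2 or 3 or knockout replicates 1 or 3 (adjusted p from 0.0553 to 0.085, edgeR). Among the knockout libraries Gng11 was highest in replicate 2 (11.7 CPM, against 7.81 and 8.16 CPM in replicates 1 and 3). The call held with that library left out, at -0.66 ± 0.12 on the log2 scale and an edgeR adjusted p of 1.55e-06.

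Of 15 regulators of cyclase activity, 5 were higher and 4 lower (median -0.01). Prkcd, a protein kinase C gene, rose from 53.3 ± 2.76 to 88.7 ± 2.80 CPM, and Stim1, the calcium sensor of the endoplasmic reticulum, from 20.5 ± 1.24 to 31.3 ± 2.72 CPM. Mycbp2, a very large ubiquitin ligase gene, fell from 172 ± 6.63 to 96.0 ± 26.1 CPM, and Gprasp1, which sorts receptors to lysosomes, from 47.4 ± 0.612 to 30.8 ± 2.29 CPM (SD, n = 3 each). The adjusted p of these 4 ran from 1.34e-05 to 0.00251 (edgeR). The log2 fold change of Mycbp2 was -0.84 ± 0.17 with all libraries and -0.63 ± 0.039 without knockout replicate 2 (SE). Among other nucleotide cyclases 3 were tested, with 1 called higher and 1 lower, and none of the called genes reached 5 CPM.

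Receptors that couple to the cyclases moved in both directions. Of 9 tested receptor genes of the Gs-coupled class, accessory RAMP proteins included, 5 were higher and 3 lower, with a median of 0.83. Mc5r and Vipr1, called higher, and Ramp2, called lower, were tested only through the group where they were high. The counts and the median rest partly on them. The adenosine receptor gene Adora2b rose from 7.63 ± 0.556 to 17.9 ± 0.0639 CPM (log2 fold change 1.23 ± 0.090), the accessory gene Ramp3 from 28.5 ± 1.31 to 54.1 ± 6.67 CPM, and the prostaglandin E receptor gene Ptger4 from 12.5 ± 0.219 to 22.1 ± 1.23 CPM. Ptgir, the prostacyclin receptor gene, fell from 13.9 ± 0.301 to 9.17 ± 0.885 CPM. Of 10 tested Gi-coupled receptor genes, 4 were higher and 2 lower (median 0.01). The sphingosine-1-phosphate receptor genes went opposite ways, S1pr3 from 81.9 ± 2.29 to 224 ± 6.04 CPM and S1pr2 from 98.5 ± 3.10 to 67.2 ± 2.39 CPM. The thrombin receptor gene F2r rose by 0.63 ± 0.063 on the log2 scale, and Lpar2, a lysophosphatidic acid receptor gene, by 0.58 ± 0.13. The adjusted p of these 8 genes ran from 1.65e-07 to 0.00382 (edgeR).

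The list for Gpr161 traffic into and out of cilia and for Smoothened output counted 8 higher and 5 lower among 24 tested genes (median 0.03). Without knockout replicate 2 it counted 10 and 5 (backgrounds of 36% and 35.1%). Gli2 and Gli3, the transcription factor genes whose processing Gpr161 promotes through protein kinase A, fell from 42.9 ± 2.47 to 18.7 ± 2.99 CPM and from 74.8 ± 2.29 to 41.0 ± 8.60 CPM. Gli1, a transcriptional target of Hedgehog signalling and named here after its values were seen, went the other way at a far lower level, from 0.352 ± 0.125 to 1.54 ± 0.350 CPM (log2 fold change 2.11 ± 0.36, adjusted p = 0.000864, edgeR). Gli1 was tested only because its knockout libraries had enough counts, so a difference was built into its being tested. Ptch1, another target of Hedgehog signalling, did not pass the test (33.2 ± 2.50 and 34.2 ± 5.94 CPM; edgeR adjusted p = 0.797). The intraflagellar transport gene Ift88 fell from 17.5 ± 1.20 to 10.6 ± 0.287 CPM. Arrb1, encoding the β-arrestin 1 adaptor for active receptors, rose from 9.17 ± 0.382 to 14.5 ± 2.69 CPM (SD, n = 3 each). The adjusted p of Gli2, Gli3, Ift88 and Arrb1 ran from 2.57e-05 to 0.00317 (edgeR). With all libraries the log2 fold changes of Gli3 and Arrb1 were -0.87 ± 0.13 and 0.67 ± 0.14 (SE). Without knockout replicate 2 they were -0.70 ± 0.053 and 0.81 ± 0.11.

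Of 21 tested genes of the cyclic AMP response, 11 were higher and 4 lower (median 0.25). The list holds CREB targets, CREB family factors and the Crtc coactivators of CREB. Without knockout replicate 2 these counts were 13 and 4 (backgrounds of 36% and 35.1%). The phosphatase gene Dusp1 rose from 26.6 ± 1.19 to 112 ± 7.34 CPM, the phosphodiesterase gene Pde4b from 31.3 ± 1.34 to 97.1 ± 9.27 CPM, and the nuclear receptor gene Nr4a1 from 34.0 ± 1.74 to 73.4 ± 3.67 CPM. Ppargc1a, encoding the coactivator PGC-1α, fell from 9.998 ± 0.459 to 1.46 ± 0.252 CPM. Their log2 fold changes were 2.07 ± 0.071, 1.63 ± 0.082, 1.11 ± 0.067 and -2.76 ± 0.15 (SE; adjusted p from 8.64e-08 to 1.94e-06, edgeR). These genes also respond to serum and stress signals, and cyclic AMP itself was not measured. Creb1 and Atf1, CREB family factor genes of the list, fell, with log2 fold changes of -0.70 ± 0.066 and -0.59 ± 0.060. Crem, of the same family, rose (0.52 ± 0.11; SE; adjusted p of these genes from 2.58e-05 to 0.00376, edgeR). They were named after their values were seen.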

How the data were processed

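RNA-seq of 6 libraries was used. The tools named in the submitters' processing notes are Trimmomatic, HISAT2, Cufflinks, HTSeq and DESeq, and the build is GRCm39. Versions, annotation and strand setting are not stated in the sources used here, so reads of overlapping antisense genes cannot be told apart. The authors deposited raw counts per gene and, in a separate table, FPKM. Dividing each count by its library total and by 1 length per gene returned the deposited FPKM to within 8.04e-05% for all 84086 values above 0, which gave the derived lengths.

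After filterByExpr, which kept 11972 genes, and TMM scaling, knockout was compared with wild type by the quasi-likelihood test of edgeR 4.0.16 under R 4.3.3. The test was checked on simulated data. CPM uses TMM-adjusted totals. The SE is the size of the log2 fold change over the square root of F. Alternatives used DESeq2 1.42.0, limma 3.58.1 on log2(FPKM + 0.1) or log2(FPKM + 1), other scalings, filters and thresholds, a replicate block, and each library left out. Gene numbers matched the RefSeq table (GRCm38.p6) for 15905 of 16000 genes. That build differs from the authors', and it was used for gene order and start windows only. Genes named beside the members are the targeted gene, up to 4 called genes per list with the largest fold change at a mean of at least 5 CPM, and the 3 most similar profiles for Gpr161 and Adcy6. Gli1, Ptch1, Creb1, Atf1 and Crem fall outside this rule, as do the low list genes named for how they came to be tested. The cell type markers singled out and the comparison by length were added after the values were seen, as were the list counts without knockout replicate 2. The members and lists were chosen with earlier results of these data known. Intervals on count ratios (exact binomial, 95%) cover counting error only.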

Additional observations from a re-analysis of the deposited data

How the results depend on the processing

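Adcy1, Adcy3 and Gpr161 stayed lower and past the threshold in all 14 refits (2 other scalings, 2 other filters, DESeq2, 2 limma fits, the replicate block and 6 fits without 1 library). Log2 fold changes ran from -0.86 to -0.54 for Adcy1 and from -0.57 to -0.37 for Gpr161. For Adcy3 they ran from -1.98 to -0.23, the last on the log2(FPKM + 1) scale, which compresses low levels. With at least 1.5-fold asked for, 2 members were lower. Leaving out 1 library gave 0 to 2 members higher, 2 without knockout replicate 2. Without 1 library the log2 fold change of Adcy7, not called, ran from -0.12 (knockout replicate 3 left out) to 0.59 (knockout replicate 2). With at least 1.5-fold asked for, 2935 genes in all were called in either direction, against 7136. Of the lists, 19 genes were then called higher and 16 lower, against 39 and 24. In CPM without length, the share of Adcy1 in wild type was 30.4%, and that of Adcy9 was 6.34% in wild type and 7.61% in knockout. With the replicate block 6692 genes were called, among them 3 members lower and 0 higher. Replicate numbers did not pair the libraries (correlations of deviations from -0.09 to 0.02 for equal numbers), and the block changed no call on a member. Depth limits Adcy2, Adcy4, Adcy5 and Adcy8, which were not tested, and Adcy7.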
